A study of Sorghum bicolor with 8 samples.

Results

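A set of 119 abundant transcripts of sorghum prop roots was markedly lower in plants grown under elevated CO2 than in plants grown under ambient CO2, both short of water. The set was drawn from 34129 genes by level and change. A member had at least 50 FPKM in the ambient group and at least 1 FPKM in the elevated group. Its log2 change from ambient to elevated, with 1 FPKM added to both values, was -1.5 or lower. FPKM is the number of fragments assigned to a gene per kilobase of its transcript, normalised for the size of the library, so levels of different genes can be set side by side per length. The members were thus chosen by their measured FPKM in both groups and by the change between them, and that change is described here and supports nothing by itself. Members made up 0.349% of all genes and 4.53% of the 2629 genes of at least 50 FPKM in ambient CO2.

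Libraries came from Sorghum bicolor cv. BRS330, a grain crop, grown in soil and given 1.5 L of water daily for the first 60 days. Water was then cut by 70% to 0.45 L daily for 30 days in all plants, so every library is from a plant under water deficit. The ambient group (4 libraries) stood in 400 µmol per mol CO2 and the elevated group (4 libraries) in 800 µmol per mol. Separate plants for the libraries within a group are not stated in the labels, and the deposited table gives 1 FPKM value per gene and group, pooled by the authors. Values are therefore printed without an SD, and read depth is unknown.

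Prop roots grow from the lower stem above the ground, brace the plant and take up water and nutrients once they reach the soil. Where they are green they hold chlorophyll and can fix carbon. Elevated CO2 lets leaves narrow their stomata and lose less water, which is why it is studied together with drought. The comparison asks how the extra CO2 alters gene expression in this organ when water is short. Members are described by level, change, locus and neighbourhood, because the files pair the identifiers with no gene name and the RefSeq gene list used here (32945 genes, assembly Sorghum_bicolor_NCBIv3) is written in another naming scheme, in which 0 of the 119 identifiers occur. For the same reason the labelled tissue was not checked against marker genes, and no roles are given.

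Member transcripts went from a median of 97.8 FPKM in ambient CO2 (quartiles 71.1 and 170 FPKM, highest 813 FPKM) to a median of 25.8 FPKM under elevated CO2 (quartiles 19.1 and 47.2 FPKM). The median change of the members was -1.79 on the log2 scale, with quartiles of -2.05 and -1.64. All genes of at least 50 FPKM in ambient CO2 had a median log2 change of -0.18 (quartiles -0.51 and 0.04). Members thus kept between 9.01% and 34.9% of their ambient level, with a median of 28.0%. In bulk tissue, fewer cells of a type and less RNA per cell cannot be told apart.

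All 119 members had been tested by the authors, and all 119 were lower with a q under 0.05 in the authors' deposited table. Of all 16280 tested genes, 9.04% were called lower at that threshold, and 5.98% at q under 0.01, which 116 members passed. Among tested genes of at least 50 FPKM in ambient CO2, 15.9% were called lower (417 of 2629). Because the rule used this contrast, nothing is read from the count of members called. The smallest p-value in the authors' deposited table (5e-05, q = 0.00112) was shared by 110 members. Of the other 9, the highest q was 0.0409, for Sobic.010G165500.

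**Figure D1:**
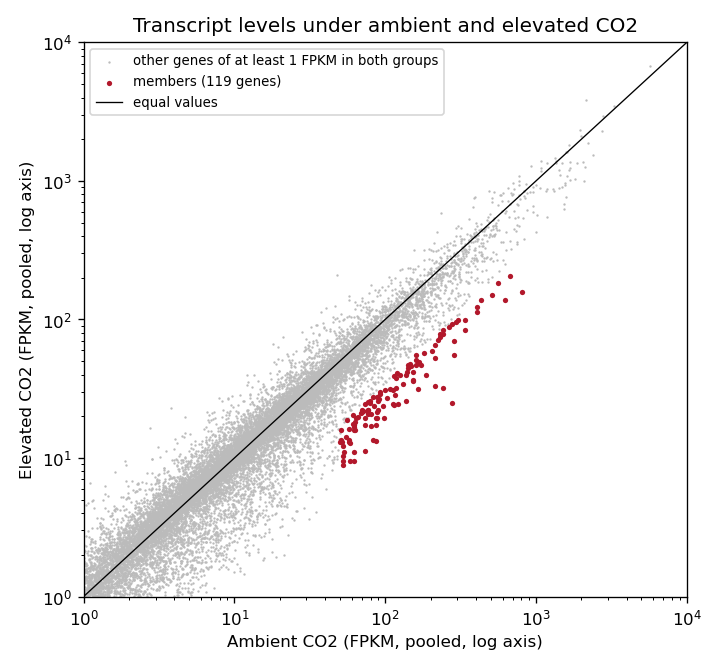
Pooled FPKM in ambient CO2 (x axis) against elevated CO2 (y axis), both on log axes, for genes of at least 1 FPKM in both groups; red points are the 119 members and the line marks equal values. Members form the lower edge of the cloud above 50 FPKM in ambient CO2, and the highest of them stands at 813 FPKM.

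Few members stayed among the abundant transcripts of the root under elevated CO2, which follows largely from the fall that the rule requires. In ambient CO2, 26 members ranked among the 500 highest genes, and in elevated CO2 2 members did. The median rank of the members moved from 1262 to 4651. A level of at least 50 FPKM was still reached by 27 members in elevated CO2, while 36 were under 20 FPKM and 4 under 10 FPKM. None came close to the lower bound of the rule: the lowest elevated value was 8.88 FPKM, in Sobic.003G364000.

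Summed over members, FPKM went from 18021 in ambient CO2 to 4885 in elevated CO2. That is 2.76% of the sum over all genes in ambient and 0.843% in elevated CO2. The sum over all genes was itself lower in elevated CO2, at 579715 FPKM against 652743 FPKM in ambient CO2. Over every gene that was lower under elevated CO2, called or not, the loss came to 118701 FPKM, and members accounted for 11.1% of it. Genes that were higher gained 45674 FPKM. The part of a difference in scale between the groups in these sums was not tested. The 10 members with the largest loss carried 28.3% of the members' own loss of 13136 FPKM.

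The most abundant member was Sobic.003G317800 (chromosome 3, 64538433 to 64539003 in the deposited locus), at 813 FPKM under ambient and 158 FPKM under elevated CO2. It ranked 64th among all genes in ambient CO2 and 559th in elevated CO2. Its log2 change was -2.36, and its locus spans only 570 bp. Directly beside it lay another member, Sobic.003G317900, which is taken up again with the neighbours.

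Next in level came Sobic.003G277700 (chromosome 3, 61337287 to 61341144), at 671 FPKM under ambient and 204 FPKM under elevated CO2, the highest elevated value of any member. Sobic.002G336600 (chromosome 2, from 70424170) was at 619 and 138 FPKM, and shares its deposited locus with an overlapping gene, so its reads may be split between them. Sobic.003G021500 (chromosome 3, 1835933 to 1839841) was at 558 and 182 FPKM. These genes lost between 376 and 481 FPKM each.

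The fifth in level, Sobic.010G165500 (chromosome 10, 48920368 to 48930191), stood at 507 FPKM under ambient and 151 FPKM under elevated CO2. It passed the authors' test less clearly than the other members, as given above. Sobic.001G119000 was at 430 and 139 FPKM, Sobic.001G112200 at 408 and 113 FPKM, and Sobic.006G089300 at 404 and 122 FPKM. Sobic.001G197000 (340 and 84.1 FPKM) and Sobic.001G533400 (338 and 99.2 FPKM) complete the 10 most abundant. Across these 10, the log2 change lay between -2.36 and -1.61, and 3 were at -2 or lower. The authors' deposited table gives Sobic.001G197000 a q of 0.0321, so that gene, Sobic.010G165500 and Sobic.003G379600 (q = 0.0120) are the 3 members that would not pass q under 0.01.

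The deepest falls lay outside the most abundant members listed above, though not all were in members of low level. Sobic.003G088400, Sobic.005G186200 and Sobic.005G186100 fell most, and each was above the members' upper ambient quartile of 170 FPKM. Sobic.003G088400 (chromosome 3, 7689355 to 7690085, span 730 bp) stood apart, at 278 FPKM under ambient and 25.1 FPKM under elevated CO2, 11.1-fold lower (log2 -3.42). It was the only member past -3 on the log2 scale, and it kept 9.01% of its ambient level. Its rank among all genes went from 353 to 4788.

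A pair of neighbours on chromosome 5 followed. Sobic.005G186200 (67090883 to 67093068) was at 243 FPKM under ambient and 31.8 FPKM under elevated CO2, 7.65-fold lower (log2 -2.90). Sobic.005G186100 (67076368 to 67078233) was at 212 and 33.3 FPKM, 6.38-fold lower (log2 -2.64). Nothing lies between them in the table, and their levels were alike in both groups.

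The other genes of the 10 deepest falls were at most at 86.5 FPKM in ambient CO2. Sobic.010G113600 (chromosome 10, 11963588 to 11965019) went from 73.9 to 11.2 FPKM, and Sobic.008G034500 (chromosome 8, 3185190 to 3186494) from 86.5 to 13.4 FPKM. Sobic.006G023400 went from 61.9 to 9.59 FPKM, and Sobic.001G407800 from 82.7 to 13.4 FPKM. Sobic.002G109900 (58.6 to 9.51 FPKM), Sobic.003G364000 (52.3 to 8.88 FPKM) and Sobic.009G038000 (62.4 to 11.1 FPKM) complete them. These log2 changes lay between -2.62 and -2.39. In all, 38 members were at -2 or lower and 8 at -2.5 or lower.

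**Figure D2:**
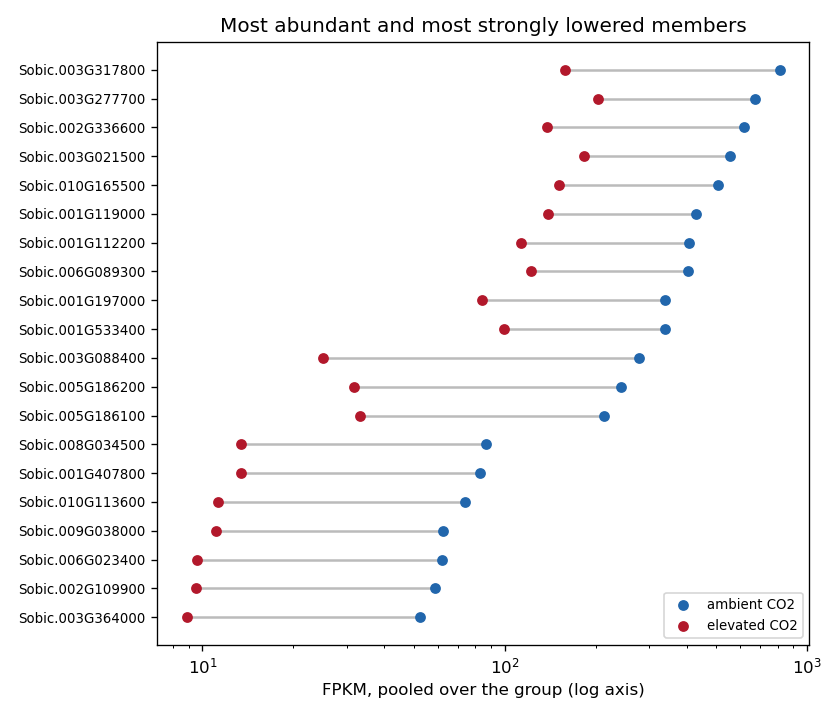
Pooled FPKM (x axis, log) in ambient CO2 (blue) and elevated CO2 (red) for the 10 most abundant members and the 10 with the lowest log2 change, ordered by ambient level. The longest bar is that of Sobic.003G088400, from 278 to 25.1 FPKM.

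Size of the change varied little with level inside the set. Members between 50 and 100 FPKM in ambient CO2 (61 genes) had a median log2 change of -1.84, those between 100 and 200 FPKM (31 genes) -1.76, those between 200 and 400 FPKM (19 genes) -1.70 and those of at least 400 FPKM (8 genes) -1.73. The share of genes that met the rule was also similar in these classes, at 4.35%, 4.49%, 5.56% and 4.08%. Over all genes of the same classes, members or not, the median log2 change went lower with level, at -0.14, -0.21, -0.26 and -0.28. Across the 119 members, Spearman's rho between ambient level and log2 change was 0.15, given as a description because the rule cuts both measures.

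The limits of the rule cut through a continuous distribution. Just inside the fold limit were Sobic.003G379700 (119 and 41.4 FPKM, log2 -1.51), Sobic.003G228900 (242 and 84.4 FPKM, log2 -1.51) and Sobic.003G127400 (55.8 and 18.9 FPKM, log2 -1.51). Just outside were Sobic.009G197600 (53.3 and 18.2 FPKM, log2 -1.498), Sobic.001G474200 (56.4 and 19.4 FPKM, log2 -1.49) and Sobic.007G197600 (261 and 92.4 FPKM, log2 -1.49). The lowest members in ambient CO2 were Sobic.001G032000 at 50.1 FPKM and Sobic.004G247700 at 51.0 FPKM. Another 13 genes missed only the ambient limit, at 45 to 50 FPKM.

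With the groups exchanged, the same rule found few genes. Of the 2360 genes of at least 50 FPKM under elevated CO2, 6 were higher there by at least 1.5 on the log2 scale (0.254%), against 119 of 2629 in the direction of the members. With both groups scaled to the same FPKM sum, which shifts all changes upward, the counts were 14 and 75. Of these 6, 4 passed the authors' test. Strongest was Sobic.009G234600 (chromosome 9, 57389227 to 57390570), at 47.9 FPKM under ambient and 210 FPKM under elevated CO2 (a log2 change of 2.11, with q = 0.00112 in the authors' deposited table). None of the 6 lay next to another. In total 394 genes rose, which is 2.42% of all tested genes.

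Members lay on all 10 chromosomes and on none of the unplaced scaffolds. Chromosome 1 held 30 of them, 5.39% of its 557 genes of at least 50 FPKM in ambient CO2, and chromosome 3 held 21 (5.30% of 396). Chromosome 2 held 14, chromosome 6 held 13 and chromosome 10 held 12. The lowest shares were 2.27% on chromosome 8 (2 of 88 genes) and 2.43% on chromosome 9 (6 of 247 genes). Chromosome 5 had the highest share, 6.49%, from only 5 of 77 genes, and the pair with the deepest falls after Sobic.003G088400 is among them.

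Among members, 23 (19.3%) lay next to another member, with at most 1 other annotated gene between them. Of all 2629 genes of at least 50 FPKM in ambient CO2, 919 (35%) lay next to another such gene. That larger set lies denser along the genome, so the shares are not directly comparable. These 23 members formed 10 pairs and 1 group of 3. The group and the pairs are described here because of their position, a property the rule did not use. The pairs were picked out after their values had been seen.

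The group of 3 lay on chromosome 1 between 68615748 and 68679703. Sobic.001G400800 was at 84.4 FPKM under ambient and 23.6 FPKM under elevated CO2, Sobic.001G400900 at 115 and 39.3 FPKM, and Sobic.001G401100 at 83.4 and 27.7 FPKM. The gene inside the group that is no member, Sobic.001G401000, fell too, from 146 to 62.5 FPKM. The 3 members had similar levels in either group, and their log2 changes lay between -1.80 and -1.53.

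The most abundant member was part of a pair on chromosome 3. Sobic.003G317900 (64550940 to 64551572, span 632 bp) was at 97.8 FPKM under ambient and 19.4 FPKM under elevated CO2, and its neighbour Sobic.003G317800 at 813 and 158 FPKM. Their levels were far apart, and their log2 changes were -2.27 and -2.36. On chromosome 1, Sobic.001G119000 and Sobic.001G119100 (159 to 55.0 FPKM) had log2 changes of -1.62 and -1.52.

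Chromosome 2 held a pair at Sobic.002G055600 (119 to 38.0 FPKM) and Sobic.002G055700 (142 to 47.1 FPKM), with log2 changes of -1.62 and -1.57. Another pair there was Sobic.002G234400 (154 to 41.9 FPKM) and Sobic.002G234500 (214 to 52.4 FPKM), at -1.85 and -2.01. In both pairs the second gene was the higher one in either group. On chromosome 6, Sobic.006G009000 (73.1 to 17.4 FPKM) and Sobic.006G009100 (90.5 to 26.5 FPKM) were adjacent, and on chromosome 3 so were Sobic.003G379600 (241 to 78.2 FPKM) and Sobic.003G379700 (119 to 41.4 FPKM). Sobic.003G379600 shares its deposited locus with an overlapping gene.

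In the remaining pairs 1 gene stood between the members. Sobic.006G101100 (266 to 88.5 FPKM) and Sobic.006G101300 (138 to 25.6 FPKM) had the widest difference of log2 change within a pair, -1.58 against -2.39. The gene between them, Sobic.006G101200, fell from 172 to 72.8 FPKM. Between Sobic.001G318500 (62.0 to 16.0 FPKM) and Sobic.001G318700 (69.5 to 21.1 FPKM) lay Sobic.001G318600, which fell from 17.7 to 6.56 FPKM. The exception was chromosome 10, where the gene between Sobic.010G084400 (63.4 to 15.8 FPKM) and Sobic.010G084700 (279 to 92.4 FPKM) was near 0 FPKM in both groups and was not tested.

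Over the 12 pairs of consecutive members, 8 of them directly adjacent, the median difference in log2 change was 0.19 (lowest 0.03, highest 0.81). Over all 7021 pairs of members it was 0.26, and the rule itself confines the change of every member. The files hold no sequence, so it is unknown which neighbours are gene copies. Near-identical copies can share reads, and the part of this in the values of neighbours was not tested.

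**Figure D3:**
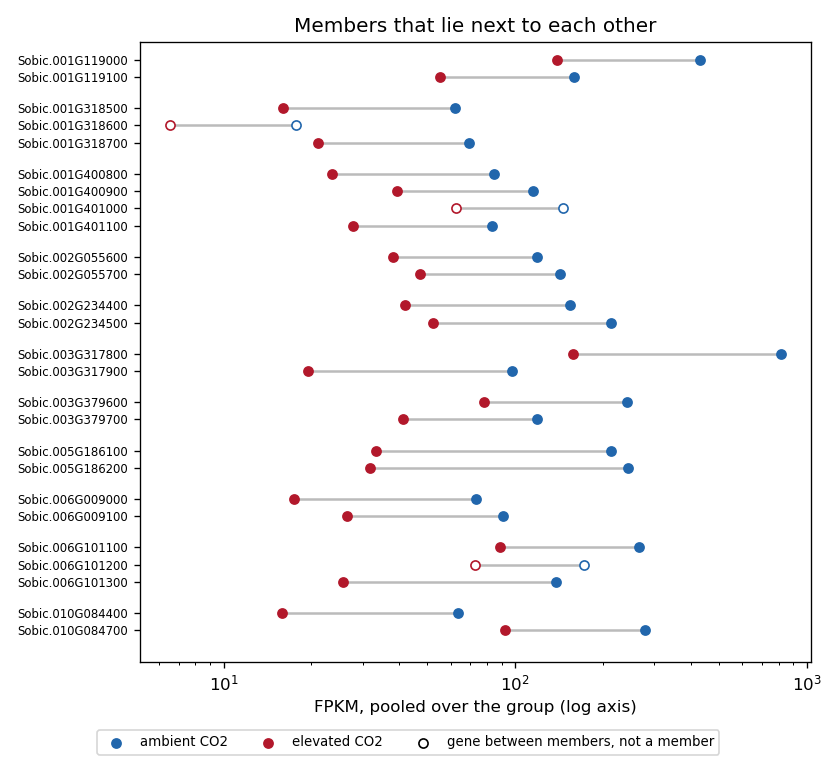
Pooled FPKM (x axis, log) in ambient CO2 (blue) and elevated CO2 (red) for the 23 members that lie next to another member, in genome order, with a space between groups; open symbols are genes between members that are no members themselves. All 3 genes drawn open were lower in elevated CO2, and 1 further gene between members, near 0 FPKM, is left out.

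Genes directly beside members were next compared with genes beside other abundant transcripts. Adjacent genes that are members were left out, and only adjacent genes under 50 FPKM in ambient CO2 were taken on both sides. Beside members 104 of them had been tested, of which 32 fell (30.8%) by the q of the authors' deposited table, while 3 rose (2.88%). Beside the other genes of at least 50 FPKM, 169 of 2139 fell (7.90%) and 47 rose. Without the limit on level, 41 of 122 fell beside members (33.6%). The share among all tested genes was 9.04% for falls and 2.42% for rises. The count of 10 adjacent genes that border both kinds of gene entered both shares.

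Levels of these adjacent genes were alike, with a median of 11.4 FPKM in ambient CO2 beside members and 11.0 FPKM beside the others. Their spans were not alike: 33 of the 104 beside members were at most 2001 bp, against 285 of the 2139 beside the others. Among these short ones 60.6% fell beside members and 14.0% beside the others, and among longer ones 16.9% and 6.96%. Their median log2 changes were -0.21 and -0.03, and the lower quartiles -1.10 and -0.25. Falls beside members were therefore carried by part of the neighbours, while 69 of the 104 were not called in either direction. With adjacent genes that share a locus left out, 31 of 98 fell beside members (31.6%) and 166 of 1913 beside the others (8.68%). No test across genes was made of these shares, and genes of 1 neighbourhood are not independent.

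**Figure D4:**
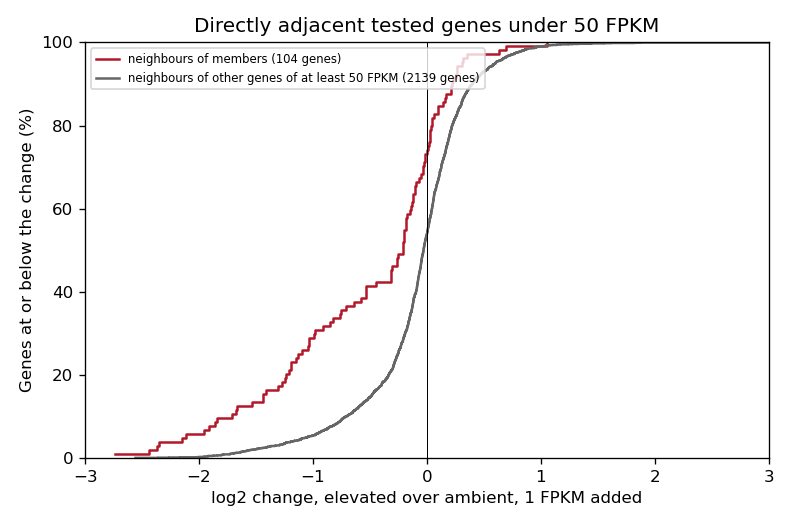
Cumulative share of genes (y axis, %) by log2 change from ambient to elevated CO2 with 1 FPKM added (x axis), for tested genes under 50 FPKM directly beside members (red, 104 genes) and directly beside other genes of at least 50 FPKM (grey, 2139 genes). The lower quartile of the red curve is -1.10 and that of the grey curve -0.25.

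Counted per member and leaving out adjacent genes that are members themselves, 36 of the 119 (30.3%) had a directly adjacent gene of any level that fell. The same held for 242 of the 2510 other genes of at least 50 FPKM in ambient CO2 (9.64%) and for 47 of the 298 of these that were themselves called lower (15.8%). Neighbouring falls formed 19 stretches of 4 or more called genes, with at most 1 other gene between consecutive ones. A member was found in 10 of these stretches, and they held 15 members (12.6%). They held 82 of all 1471 called falls (5.57%), and 11 of the 298 called falls of at least 50 FPKM in ambient CO2 that are no members (3.69%). In 9 of these 10 the highest gene in ambient CO2 was a member, which the rule's minimum of 50 FPKM favours. On chromosome 10, between 59624460 and 59646102, Sobic.010G259300 stood at 304 FPKM under ambient and 99.1 FPKM under elevated CO2, in a run whose lowest gene had 5.66 FPKM in ambient CO2. On chromosome 3, between 56589484 and 56715010, Sobic.003G228900 was at 242 FPKM in a run that reached down to 5.23 FPKM.

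Member loci were short. The median span from start to end of the deposited locus, introns included, was 1852 bp (quartiles 1061 and 3944 bp), against 3559 bp (quartiles 2330 and 5124 bp) for the other genes of at least 50 FPKM in ambient CO2. Under 1000 bp were 28 members (23.5%), against 5.36% of all genes at that level. Over 5000 bp were 10 members (8.40%), against 25.8%. The shortest was Sobic.005G101700, with 516 bp on chromosome 5, at 160 FPKM under ambient and 50.9 FPKM under elevated CO2. Sobic.003G379600 had the longest, 13467 bp, a locus shared with an overlapping gene.

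When genes of at least 50 FPKM in ambient CO2 were put into 5 classes of like number by span, 63 of 526 genes in the shortest class (108 to 2001 bp) were members, 12.0% (95% Wilson interval 9.47 to 15.0%, for counting over genes only). The next classes held 3.04%, 2.10% and 3.99%, and the longest (5541 to 32574 bp) 1.52%, with 8 of 526. The share was highest in the shortest class and did not decline steadily beyond it. Between 50 and 100 FPKM the shortest class held 16.3% members and the longest 0.872%. At 100 FPKM and above the values were 8.70% and 2.75%, so the difference had the same direction at both levels.

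Among the 6 genes found with the groups exchanged, 4 were in the shortest class, 0.860% of the 465 genes of that span with at least 50 FPKM under elevated CO2. Of these, Sobic.006G235900 (span 132 bp) was not called, with q = 0.255 in the authors' deposited table. The median span of all 6 was 1484 bp. Changes were widest in the shortest class. The median absolute log2 change of genes of at least 50 FPKM in ambient CO2, members included, was 0.43 there. In the next classes it was 0.22, 0.24 and 0.29, and in the longest 0.24, so it did not decline steadily with span. The part of counting error, which is larger for short transcripts at the same FPKM, was not tested, as read depth is unknown.

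**Figure D5:**
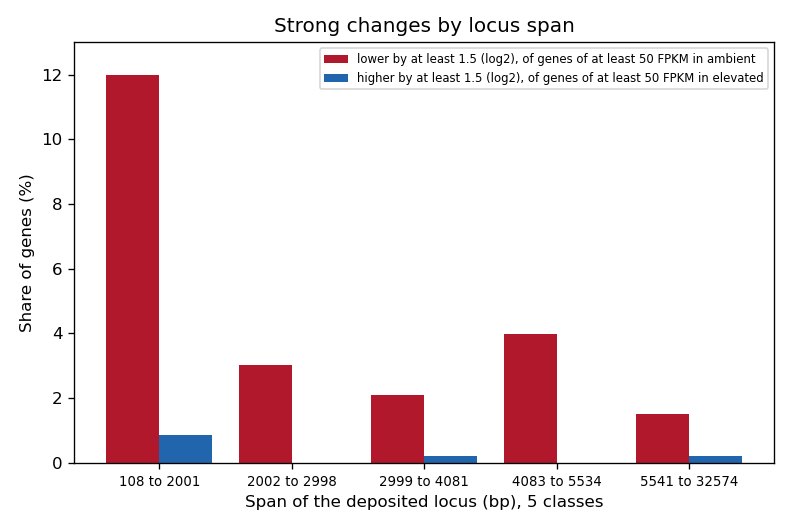
Share of genes (y axis, %) by span of the deposited locus (x axis, 5 classes in bp). Red bars give members among genes of at least 50 FPKM in ambient CO2, from 12.0% in the shortest class to 1.52% in the longest. Blue bars give the genes that met the rule with the groups exchanged, called or not, at most 0.860%.

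Falls of neighbours were counted separately for short and long members. Beside the 63 members of the shortest class, 26 of 55 tested adjacent genes under 50 FPKM fell (47.3%) and 0 rose. Beside the 56 longer members, 6 of 49 fell (12.2%) and 3 rose (6.12%). For other genes of at least 50 FPKM, 8.18% of adjacent genes fell beside those of the shortest class and 8.01% beside longer ones. These differences carry no test. Adjacent genes of short members were themselves shorter, with a median span of 2400 bp against 5557 bp beside the longer members. Within the set, the change itself differed little by span, with a median log2 change of -1.84 in the shorter 60 members and -1.75 in the other 59.

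Overlapping loci were not frequent in the set. A deposited locus shared with another gene was found for 4 members (3.36%), against 8.63% of genes of at least 50 FPKM in ambient CO2. Besides Sobic.002G336600 and Sobic.003G379600 these were Sobic.009G215400 (214 and 65.3 FPKM) and Sobic.001G454100 (96.3 and 23.8 FPKM). Sharing differed by span. Of genes at that level, 522 of 526 in the shortest class had a locus of their own, against 362 of 526 in the longest. Members were 63 in the shortest class, all with a locus of their own, and 8 in the longest, of which 4 had one. All 4 members with a shared locus were thus in the longest class. The part of span in the low share over all members was not tested. Identifiers that do not end in 00 belonged to 4 members (3.36%), close to the 3.54% of all genes of at least 50 FPKM in ambient CO2.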

How the data were processed

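RNA sequencing of prop roots gave 4 libraries per CO2 group, from the Illumina TruSeq Stranded mRNA kit, per the labels' protocols. Reads went through Trimmomatic 0.36, HISAT2, Cufflinks 2.2.1 and Cuffdiff, per the submitters' processing notes, which give no settings. Identifiers carry the suffix 3.2, and the build of the loci is not stated in the sources used here. Deposited by the authors were 1 pooled FPKM value per gene and group, with a log2 ratio, a test statistic (a score), a p-value and a q-value. Per the file headers, 0 columns hold single libraries, so no replicate error, count test or interval on a level could be had.

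From these values the log2 change with a pseudocount of 1 FPKM was computed, with Python 3.11.15 and pandas 2.3.3. A gene was called when the authors had tested it and the deposited q was under 0.05. Neighbours are consecutive genes in the order of deposited loci. The rule and run search were tested on simulated data.

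Members and lists were chosen with earlier results of these data known. The genes named are the 10 highest, the 10 deepest falls, members of groups of 3, those at the limits, and others said to be picked by position or property. Product classes, promoter motifs and protein comparisons were planned but not run, as no names or sequences were at hand. Alternatives varied the limits, pseudocount, scaling, spacing and locus sharing.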

Additional observations from a re-analysis of the deposited data

How the results depend on the processing

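The set's size follows its limits. With a log2 limit of -1 there were 286 genes, 274 of them called (median -1.37), and 60 lay next to another; with -2 there were 38, all 38 called (median -2.23). An ambient minimum of 20 FPKM gave 207 genes, 207 called, and one of 100 FPKM gave 58, 58 called. Scaling both groups to the same FPKM sum shifted all changes by 0.17 on the log2 scale and left 75 genes, 75 called, while the rule with the groups exchanged then found 14 genes, a check chosen after seeing the data. On that scale the median of tested genes was 0.13. The share of members among the shortest loci was 16.3% at 50 to 100 FPKM and 8.70% from 100 FPKM. The share of adjacent genes that fell was 47.3% beside members of the shortest class and 12.2% beside longer ones. These splits by level and span were chosen after seeing the data. The other 24 values run stayed within 1.5 times a count, 0.1 of a median or the interval of a share. Some of these could hardly move. Raising the elevated minimum to 5 FPKM could remove no member, as the lowest was at 8.88 FPKM, and dropping it added 0 genes. No paired analysis was possible because the authors pooled the libraries of each group into 1 value, which also means that leaving out a library was not possible. Limits set by read depth were not assessed.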
